A study of Caenorhabditis japonica with 3 samples.

Results

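Whole embryos of the nematode Caenorhabditis japonica sampled 140 to 180 minutes after the 4-cell stage were compared with embryos sampled at 60 to 100 minutes. Each window holds 5 embryos, 1 at each step of 10 minutes, so the comparison used 10 of the 46 embryos in the series. The embryos were chosen by age, on both sides of the first library border. Those between the windows, at 110, 120 and 130 minutes, had been left out for their low read numbers. The later window comes from the second of 3 pooled libraries, called middle here, and the earlier window from the first, called early.

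The series is a developmental time course from the 1-cell stage to 430 minutes. All embryos belong to 1 species, which has males and females, and no strain, genotype or added agent is named for any of them. Embryos were cut out of adults, washed in bleach, collected at the 4-cell stage and incubated at 20°C for their given time, so the age of an embryo is its time of incubation. PolyA RNA of single embryos was barcoded, pooled and amplified by CEL-Seq, which sequences the 3′ ends of transcripts. Each library is 1 pool, and the library and the window change together, so a difference between windows and a difference between libraries cannot be told apart. Each embryo is a separate animal and counts as 1 replicate. Since no age was sampled more than once, the p-values are set by how far embryos of a window differ from one another, age included.

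A nematode embryo starts with RNA laid down by the mother. As it divides, maternal transcripts are degraded on a schedule and the embryo's own genome is switched on, so that both loss of old RNA and arrival of new RNA shape its contents. In the related C. elegans this handover is gradual, with some maternal transcripts lost early, others kept for a long time, and embryonic genes starting at different stages.

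The deposited table lists 3955 genes and no gene with fewer than 103 reads over the 46 embryos. Reads in the listed genes at 140, 150, 160, 170 and 180 minutes were 114402, 17789, 1719, 142499 and 2643. At 60, 70, 80, 90 and 100 minutes they were 36767, 257770, 26508, 45463 and 114677. The embryos at 160 and 180 minutes were therefore as shallow as those at 110 to 130 minutes, which had 1890, 14709 and 7443 reads. A single read in the 160-minute embryo stands for a far larger share of the library than in a deep one, so the count of called genes, the windows without overlap and the per-embryo measures are given with and without them. At least 1 read was present for 3739 genes at 140 to 180 minutes and for 3718 genes at 60 to 100 minutes.

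Across the border more genes were called lower than higher in the later window. Of 813 genes with enough reads to be tested, 176 (21.6%) differed at an adjusted p under 0.05 in edgeR's quasi-likelihood test: 64 were higher at 140 to 180 minutes (7.87% of those tested) and 112 were lower (13.8%). At an unadjusted p under 0.05 there were 273 genes, and limma called 108. The higher genes had a median log2 fold change of 1.99, with quartiles at 1.51 and 2.61, and the lower genes had a median of -2.19, with quartiles at -2.83 and -1.76. The median over all tested genes was -0.21. Changes of at least 4-fold were found for 32 of the 64 higher and 68 of the 112 lower genes, and changes of at least 16-fold for 5 and 12.

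In 39 of the 813 genes (4.8%) every embryo at 140 to 180 minutes was above every embryo at 60 to 100 minutes, and in 82 (10.1%) every later embryo was below every earlier one. Among the called genes this held for 35 of the 64 higher and 66 of the 112 lower ones. Without the embryos at 160 and 180 minutes it held for 77 (9.47%) and 136 (16.7%) of the 813 genes, and for 51 of the 64 higher and 96 of the 112 lower ones. These are levels relative to the other listed transcripts. In whole embryos, a transcript held by fewer cells and a transcript held at less RNA per cell cannot be told apart.

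The balance of the calls depended on the scaling and the filter. DESeq2's size factors shifted the median log2 change of all tested genes to -0.48 and gave 47 higher and 177 lower genes, so that 21.0% of the calls were higher, against 36.4% with TMM. The filter asks for enough reads in at least 5 embryos. A gene absent from the earlier window could pass only with reads in both shallow embryos of the later one. Without the embryos at 160 and 180 minutes 1753 genes were tested, and 155 were higher and 251 lower, with 145 of the 176 genes called again in the same direction. Without any filter 421 genes were higher and 431 lower.

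**Figure D1:**
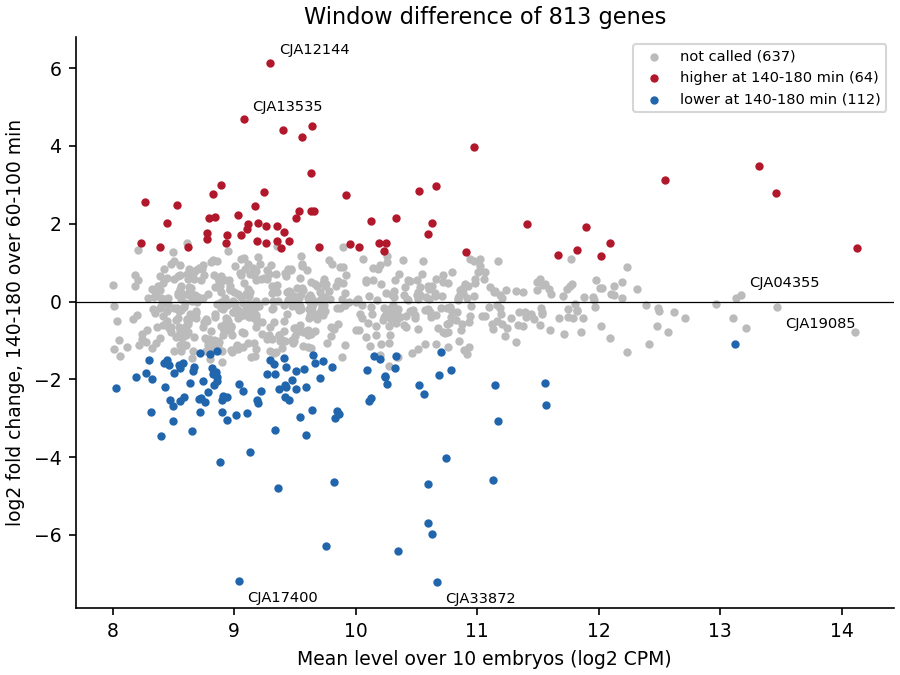
Log2 fold change, 140 to 180 over 60 to 100 minutes, against the mean level over the 10 embryos in log2 CPM, for each of the 813 tested genes. Red points are the 64 genes higher at 140 to 180 minutes, blue points the 112 lower ones, grey points the genes not called, and the labelled genes are those described by their values in each embryo.

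The files give genes by identifier only, so genes are described by their values and not by function. Levels of single genes are in CPM, counts per 1000000 counts of the tested genes, after TMM scaling. CJA12144 had the largest rise among called genes whose windows did not overlap. At 140, 150, 160, 170 and 180 minutes it stood at 1283, 463, 1265, 584 and 2609 CPM, against 43.7, 11.1, 0, 30.5 and 0 CPM at 60, 70, 80, 90 and 100 minutes. The genes with the largest rises and falls were chosen for windows that do not overlap, so the lack of overlap is a condition and no result. With its few earlier reads CJA12144 also passed the filter only through the 5 later embryos. The lowest of these was more than 10 times the highest earlier value. Its mean was 1241 ± 853 CPM at 140 to 180 minutes and 17.1 ± 19.4 CPM at 60 to 100 minutes (SD, n = 5 each), a log2 fold change of 6.14 ± 0.71 (SE; edgeR adjusted p = 3.58e-07). In reads summed over the embryos it had 182 in the later and 4 in the earlier window, which is a ratio of 78.5 after division by the window totals, with a 95% exact counting interval from 30.1 to 291.

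CJA12144 continued upward after 180 minutes. Per 1000000 reads in the listed genes, summed over the embryos of a window, its level was 44.8 in the 1-, 2- and 4-cell embryos. On this scale the level was 13.8 at 10 to 50 minutes, 8.31 at 60 to 100, 652 at 140 to 180 and 881 at 190 to 230 minutes. It was 4535 at 240 to 290 minutes, 10005 at 300 to 360 minutes and 10056 at 370 to 430 minutes.

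CJA13535 showed another course. It had 1057, 926, 1265, 652 and 1305 CPM at 140 to 180 minutes, in order of age, against 43.7, 27.7, 53.9, 61.0 and 21.9 CPM at 60 to 100 minutes. The windows did not overlap, as the choice required, and this gene too passed the filter only through the 5 later embryos. The means were 1041 ± 267 CPM in the later and 41.7 ± 16.7 CPM in the earlier window (SD, n = 5 each). The earlier values rest on 1, 5, 1, 2 and 2 reads, and those at 160 and 180 minutes on 2 and 3. The spread between embryos is therefore poorly measured. The log2 fold change was 4.69 ± 0.54 (SE; edgeR adjusted p = 3.12e-07), and summed reads were 173 against 11, a ratio of 27.1 (95% counting interval 14.8 to 55.3). After the border its level changed little by comparison with CJA12144: 620 reads per 1000000 at 140 to 180 minutes, 532 at 190 to 230, 381 at 240 to 290, 595 at 300 to 360 and 459 at 370 to 430 minutes. Before it, the level was 12.8 in the 1-, 2- and 4-cell embryos, 4.59 at 10 to 50 minutes and 22.9 at 60 to 100 minutes.

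The genes with the largest falls were almost absent from the later window. CJA33872 had 47.5, 0, 0, 0 and 0 CPM at 140 to 180 minutes, in order of age, against 2405, 4367, 3290, 5219 and 955 CPM at 60 to 100 minutes. Its reads in the later window were 4 in all and came from the 140-minute embryo, against 1163 in the earlier window. The windows did not overlap, as the choice required, with means of 9.50 ± 21.2 CPM at 140 to 180 minutes and 3247 ± 1666 CPM at 60 to 100 minutes (SD, n = 5 each). The log2 fold change was -7.21 ± 0.82 (SE; edgeR adjusted p = 3.12e-07), and the ratio of summed reads was 169 (95% counting interval 65.7 to 620), lower at 140 to 180 minutes. CJA33872 was not at its peak in the first embryos: its level was 464 reads per 1000000 in the 1-, 2- and 4-cell embryos, 673 at 10 to 50 minutes and 2417 at 60 to 100 minutes. In the shallow embryos at 110 to 130 minutes it was 582, from 14 reads, and at 300 to 430 minutes no read was seen.

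CJA17400 followed the same course at a lower level. It had 0, 0, 0, 9.73 and 0 CPM at 140 to 180 minutes, which is 1 read, against 656, 1112, 1456, 1465 and 549 CPM at 60 to 100 minutes. The means were 1.95 ± 4.35 CPM in the later and 1048 ± 432 CPM in the earlier window (SD, n = 5 each), without overlap, as the choice required. The log2 fold change was -7.20 ± 0.82 (SE; edgeR adjusted p = 3.12e-07). The ratio of summed reads, 1 against 341, was 198 (95% counting interval 35.3 to 7834), lower at 140 to 180 minutes. Its level per 1000000 reads was 150 in the 1-, 2- and 4-cell embryos, 290 at 10 to 50 minutes, 709 at 60 to 100 minutes and 1.37 at 190 to 230 minutes. For this gene and CJA33872 the transcript was thus present from the 1- to 4-cell embryos onward, stood highest in the 60 to 100 minute window and was nearly gone from 140 minutes on.

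A pair of abundant genes did not differ detectably between the windows. CJA19085 had 7566, 16049, 6323, 15572 and 7393 CPM at 140 to 180 minutes, against 11149, 12121, 12403, 16480 and 8031 CPM at 60 to 100 minutes. The windows overlapped, and the log2 fold change was -0.15 with an approximate 95% interval from -0.80 to 0.50 (edgeR adjusted p = 0.83), and between -0.42 and 0.15 under the other settings tried. CJA04355 had 11212, 10802, 7588, 12078 and 6523 CPM at 140 to 180 minutes, against 9269, 9852, 8305, 6867 and 9567 CPM at 60 to 100 minutes. These windows overlapped too, and the log2 fold change was 0.16, with an interval from -0.37 to 0.70 (edgeR adjusted p = 0.80), and between -0.10 and 0.42 under the other settings. Over a wider gap in age both were higher: in edgeR's test of 190 to 230 over 10 to 50 minutes the log2 fold change was 0.95 for CJA19085 (adjusted p = 0.024) and 1.58 for CJA04355 (adjusted p = 6.62e-04).

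**Figure D2:**
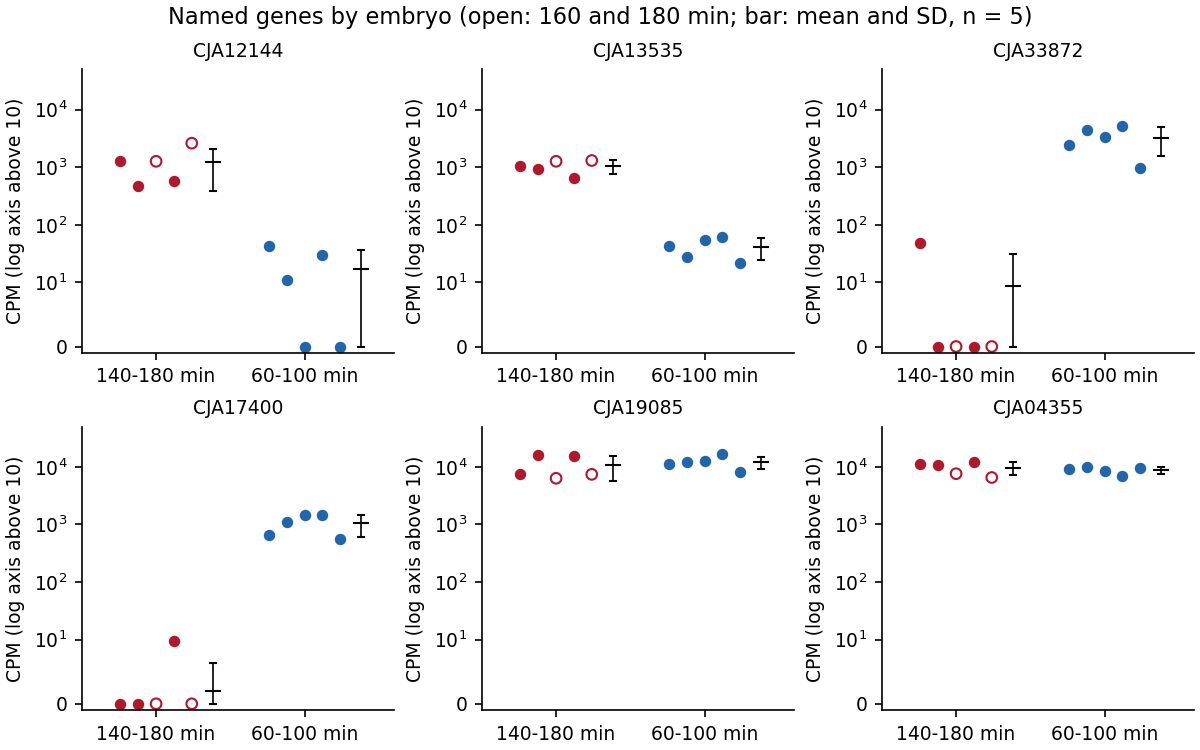
Counts per 1000000 (CPM) in each embryo for the 4 genes with the largest differences and the 2 genes with no detectable difference, on an axis that is linear below 10 and logarithmic above, with bars for the mean and SD of 5 embryos. In the first 4 panels the 140 to 180 minute embryos (left, red, with open circles for 160 and 180 minutes) and the 60 to 100 minute embryos (right, blue) do not overlap, and in the last 2 panels they do. The first 4 genes were chosen among those without overlap.

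Nearly all tested genes, called or not, already had reads before the first window. Of the 64 higher genes, 61 had a read in the 1-, 2- and 4-cell embryos and 52 had at least 10 reads there. Of the 112 lower genes, 112 had a read there and 106 had at least 10. Of all 813 tested genes, 809 had a read in those embryos and 789 had at least 10. At least 10 reads were thus present for 81.3% of the higher and 94.6% of the lower genes, against 97.0% of all tested genes. The higher genes had a median of their mean levels of 1197 CPM at 140 to 180 minutes and 277 CPM at 60 to 100 minutes. For the lower genes these medians were 174 CPM at 140 to 180 minutes and 1074 CPM at 60 to 100 minutes. In the late library 2 of the 112 lower genes (1.79%) had no read, against 2 of all 813 tested genes (0.246%).

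Genes with no read at all in a window are outside the tested set, because the filter removes them. In 40 of the 3955 listed genes at least 10 reads were seen at 140 to 180 minutes and none at 60 to 100 minutes, with a later-window median of 19 and a highest sum of 189. The absence of reads from the earlier window allows up to 6.23 reads per 1000000, from 3 counts over the window, so these genes were not detectable there at this depth. Of the 40, 18 (45%) had a read in the 1-, 2- and 4-cell embryos, against 91.9% of all listed genes, and 9 (22.5%) had one at 110 to 130 minutes, against 71.9% of all listed genes. Most listed genes were read at 60 to 100 minutes, so they are no matched background. Of 3634 listed genes read in the 1-, 2- and 4-cell embryos, 3562 were also read at 60 to 100 minutes. Of 2845 read at 110 to 130 minutes, 2827 were. As a whole, listed genes without a read at 60 to 100 minutes were thus read in these embryos less often than the 40. All 40 had at least 10 reads at 190 to 290 minutes, against 95.3% of all listed genes.

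The opposite set had 38 genes, with no read at 140 to 180 minutes and at least 10 at 60 to 100 minutes. Their median was 28.5 reads and their highest sum 288, and the limit set by 0 reads in the later window is 10.8 per 1000000. Of these, 34 (89.5%) had a read in the 1-, 2- and 4-cell embryos, and all 38 had one by 50 minutes. At 190 to 290 minutes 13 (34.2%) had at least 10 reads, and 29 (76.3%) had a read in the late library, against 99.4% of all listed genes. Both sets were chosen by their reads in the 2 windows, so their reads there add nothing to what chose them. Listed genes have at least 103 reads over the 46 embryos, so most genes of both sets must have reads at other ages. That reads were seen at some other age is therefore largely set by the listing. Only the ages at which those reads fell add to what chose the sets.

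The same genes were then followed in embryos that the comparison had not used. In the same libraries, 5 embryos at 190 to 230 minutes were set against 5 at 10 to 50 minutes, where 1770 genes could be tested and 928 (52.4%) differed in edgeR's test, 518 higher (29.3%) and 410 lower (23.2%) in the later window. This balance depended on the scaling and the embryos: DESeq2's size factors gave 460 higher and 469 lower, library size alone gave 388 and 559, and with 1 embryo left out 44.4 to 58.4% of the calls were higher. Of the 64 genes higher at 140 to 180 minutes 63 could be tested there: 62 had a positive log2 fold change, 59 (93.7%) were called higher and 0 lower, and their median was 2.23. Of the 112 lower genes 99 could be tested: 94 had a negative log2 fold change, 69 (69.7%) were called lower and 1 higher, and their median was -1.51. Over the 789 genes tested in both comparisons 483 had a positive and 306 a negative log2 fold change. Of these 789, 34.5% were called higher and 18.0% lower, with a median of 0.35. These embryos share the libraries of the first comparison, so they do not separate library from time.

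**Figure D3:**
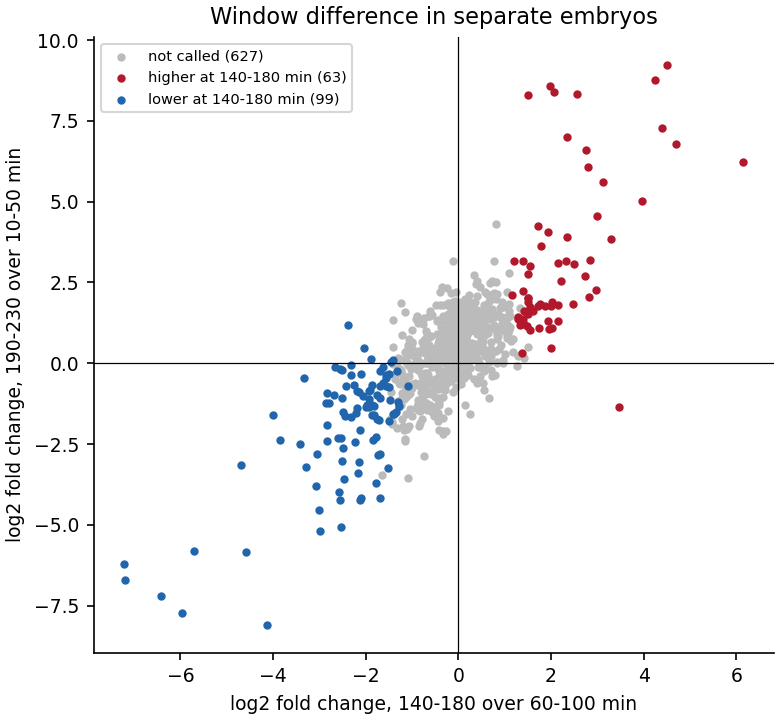
Log2 fold change of 190 to 230 over 10 to 50 minutes (vertical axis) against that of 140 to 180 over 60 to 100 minutes (horizontal axis) for the 789 genes tested in both. Of the red genes, higher at 140 to 180 minutes, 62 of 63 lie above 0, and of the blue genes, lower at 140 to 180 minutes, 94 of 99 lie below 0. Of all 789 genes 483 lie above 0 and 306 below.

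The share of all listed reads held by the called genes was followed in each embryo. These genes were chosen for a difference between the 2 windows, so their shares cannot show where in the course change fell. The 64 higher genes held 11.5, 12.4, 20.0, 11.5 and 15.1% of reads at 140 to 180 minutes, against 1.93, 2.58, 3.51, 3.55 and 3.84% at 60 to 100 minutes. The 112 lower genes held 3.33, 2.11, 2.21, 2.26 and 2.31% at 140 to 180 minutes, against 12.5, 12.5, 12.1, 11.7 and 8.14% at 60 to 100 minutes. Within the 10 embryos these shares only describe the choice of the genes. When the genes were chosen again without the embryo being measured, the log2 ratio of the higher to the lower share was 1.07, 2.95, 2.38, 2.87 and 2.96 at 140 to 180 minutes and -2.70, -1.91, -2.11, -1.28 and -1.47 at 60 to 100 minutes. The left-out embryo fell on its own window's side of 0 in 10 of 10 cases. It shares its library with the other embryos of its window, which helped choose the genes, so this does not separate library from time. The lists held 55 to 92 higher and 87 to 138 lower genes, so a ratio of 0 is no neutral point.

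At ages that did not enter the choice, the shares also stood apart on the 2 sides of the border, which is also the library border. The higher genes held 2.71 to 3.36% in the 1-, 2- and 4-cell embryos and 2.49 to 3.13% at 10 to 50 minutes, then 9.51 to 14% at 190 to 230 minutes and 12.6 to 17.4% at 240 to 290 minutes. The lower genes held 7.21 to 9.70% in the 1-, 2- and 4-cell embryos and 8.60 to 9.74% at 10 to 50 minutes, below the 4 younger embryos at 60 to 100 minutes. From 190 to 430 minutes they held 1.61 to 2.95%.

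The embryos at 110 to 130 minutes belong to the early library but lie next to the later window in age. The higher genes held 11.7% of reads at 110 minutes (exact 95% interval 10.3 to 13.3), 4.12% at 120 minutes (3.80 to 4.45) and 8.33% at 130 minutes (7.71 to 8.98). All 3 values were above the 5 embryos at 60 to 100 minutes, and the 110-minute value was within the range of the later window. The 120-minute interval includes the 3.84% of the 100-minute embryo. In these 3 embryos the share fell with depth: those with 1890, 7443 and 14709 reads held 11.7, 8.33 and 4.12%. The shallowest embryos of the later window, with 1719 and 2643 reads, also had its highest shares, 20.0 and 15.1%. Both helped choose the 64 genes, so these values also describe that choice. Chosen again without the embryo measured, the higher genes held 9.52, 8.05, 10.99, 9.14 and 14.3% at 140 to 180 minutes, in order of age. These lists held 64, 67, 83, 55 and 84 genes, so their shares are not directly comparable. The part of depth in the shares of the shallow embryos was not tested. The lower genes held 8.47% (7.25 to 9.81), 8.34% (7.89 to 8.79) and 6.64% (6.08 to 7.23). These 3 values remained above every embryo at 140 to 180 minutes. The 3 embryos do not run in order of age, since the 110-minute embryo, with 1890 reads, had the highest share of the higher genes. The intervals cover counting error only, as the reads carry no molecular identifiers that the sources name.

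**Figure D4:**
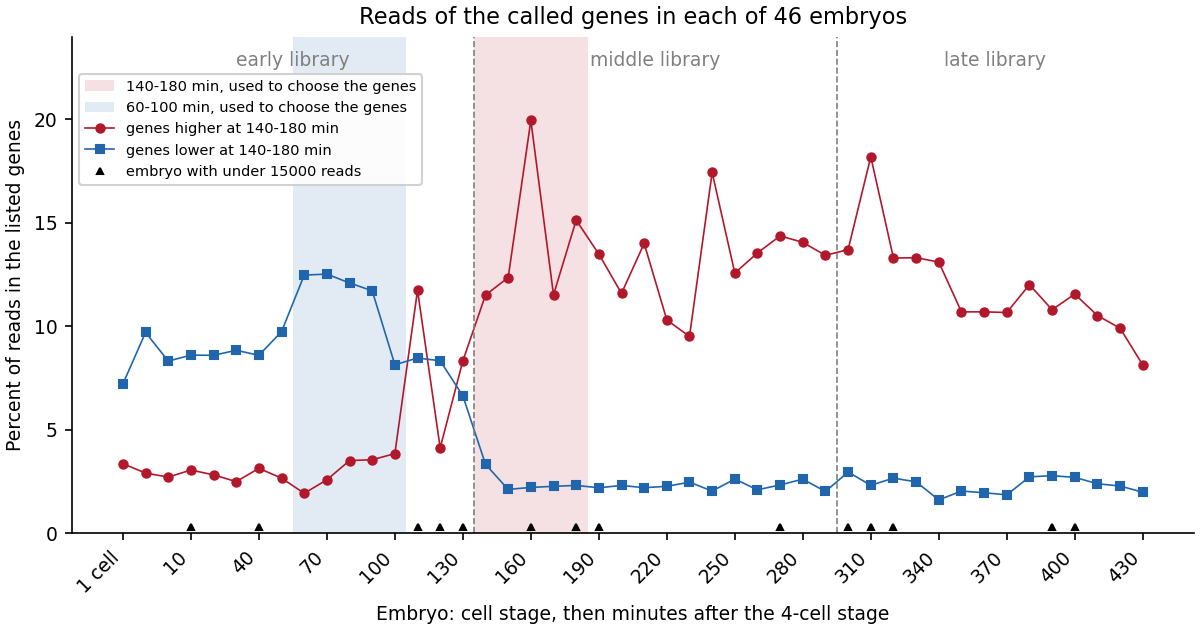
Percent of the listed reads held by the 64 genes higher at 140 to 180 minutes (red circles) and by the 112 lower genes (blue squares) in each of the 46 embryos in order of age, with the pair of windows that chose the genes shaded, library borders dashed and embryos under 15000 reads marked by triangles. The lines cross in the embryos at 110 to 130 minutes, which lie in the early library.

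Within a window, few genes were called for a slope with age. Few calls do not show that few genes changed, since no age was sampled more than once and the later window holds shallow embryos. In a fit with a slope for each window, 1 of the 813 genes (0.123%), a fall, had a slope at 140 to 180 minutes at an adjusted p under 0.05, and 4 genes (0.492%), which all rose, had one at 60 to 100 minutes. Unadjusted p-values under 0.05 were found for 47 genes in the later and 53 in the earlier window. limma called 0 genes in either window, with 60 at an unadjusted p under 0.05 in the later and 9 in the earlier one. No gene was called for a difference between the slopes in edgeR's fit, where 43 had an unadjusted p under 0.05, or in limma's, where 23 did. Over the 64 higher genes the median slope was -0.037 log2 units per 10 minutes at 140 to 180 minutes, with 30 of 64 above 0, and 0.20 at 60 to 100 minutes, with 48 of 64 above 0. Over the 112 lower genes it was -0.15 at 140 to 180 minutes, with 39 of 112 above 0, and -0.19 at 60 to 100 minutes, with 13 above 0. Over all 813 genes it was -0.037 in the later window, with 359 above 0, and -0.031 in the earlier one, with 362 above 0. The same embryos chose the lists, so these slopes are a description.

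The genes with slopes are given by their values in each embryo. CJA42494, the largest of the 4 slopes, had 368, 1003, 1897, 749 and 2609 CPM at 140 to 180 minutes, against 0, 0, 0, 0 and 154 CPM at 60 to 100 minutes. Its 14 reads in the earlier window all came from the 100-minute embryo. The slope at 60 to 100 minutes was 2.34 ± 0.49 log2 units per 10 minutes (SE; edgeR adjusted p = 0.013). It rests on the 100-minute embryo, without which the slope was 0 to the rounding used and the adjusted p 1, and without the 70-minute embryo it was 3.40 with an adjusted p of 0.19. The gene was also higher in the later window, by a log2 fold change of 4.40 (edgeR adjusted p = 1.80e-04).

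CJA02108, named after its values were seen, rose in the embryos at 90 and 100 minutes. It had 1164, 2701, 1265, 2647 and 1305 CPM at 140 to 180 minutes, against 43.7, 5.53, 53.9, 488 and 1525 CPM at 60 to 100 minutes. The reads in the earlier window were 1, 1, 1, 16 and 139 in order of age, and the 100-minute embryo was within the range of the later window. Its slope at 60 to 100 minutes was 2.1 ± 0.34 log2 units per 10 minutes (SE; edgeR adjusted p = 0.0010), with adjusted p = 0.046 without the 100-minute embryo and 0.066 without the 70-minute embryo. In the 1-, 2- and 4-cell embryos it had 1 read and at 10 to 50 minutes 2 reads. Its level per 1000000 listed reads was 1469 at 140 to 180 minutes, 808 at 190 to 230 minutes, 276 at 240 to 290 minutes and 79.9 at 370 to 430 minutes, so it was highest in the 140 to 180 minute window among the windows sampled. The other 2 rising genes had 67 and 78 reads at 100 minutes and 1 each at 60 minutes.

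The falling gene of the later window was CJA02877. It had 582, 0, 0, 9.73 and 0 CPM at 140 to 180 minutes, against 1705, 863, 1834, 946 and 900 CPM at 60 to 100 minutes. Its reads in the later window were 49 at 140 minutes and 1 at 170 minutes, so it was high in the youngest embryo and at or near 0 in the other 4. The slope was -2.03 ± 0.42 (SE; edgeR adjusted p = 0.039), and without the 140-minute embryo it was 0.82 with an adjusted p of 1. The adjusted p also passed 0.05 with the slope little changed without the embryo at 150 minutes (slope -1.91, adjusted p = 0.061), at 160 minutes (-2.08, 0.056) and at 160 and 180 minutes together (-2.07, 0.22). Without the 170-minute embryo the later window had reads at 140 minutes only, and the adjusted p was 0.47. Between windows the log2 fold change was -2.46 (edgeR adjusted p = 0.0092), without overlap.

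Few of the genes with alternative 3′ ends were called for a change in the use of their ends. The table splits a gene's reads over peaks, each with a location in the gene, but the sources do not say from where or in which direction locations are counted. Of 144 genes with at least 2 peaks that could be tested, 3 (2.08%) changed in edgeR's test of differential usage, 15 had an unadjusted p under 0.05, and a logistic regression called 0, with 17 at an unadjusted p under 0.05. Over the 122 genes with exactly 2 tested peaks the share of the peak with the higher location was larger at 140 to 180 minutes in 63 and smaller in 59, and the median size of the difference was 6.09 percentage points.

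In CJA16785 the peak at location 2068 held 87.4, 76.0, 75.9 and 100% of the gene's reads at 140, 150, 170 and 180 minutes, with too few reads at 160 minutes, against 12.5, 43.6, 71.4, 65.0 and 38.7% at 60 to 100 minutes. All later embryos were above all earlier ones, with means of 84.8 ± 11.5% (SD, n = 4) in the later and 46.2 ± 23.4% (SD, n = 5) in the earlier window. The peak at location 1895 held 8.74 ± 6.86% in the later and 36.5 ± 17.6% in the earlier window. The adjusted p from edgeR was 0.013, and 0.058 without the embryos at 160 and 180 minutes.

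In CJA15738 the peak at location 466 held 0, 0 and 2.22% at 140, 150 and 170 minutes, the later embryos with at least 5 reads, against 25, 28.0, 36.4, 45.8 and 18.5% at 60 to 100 minutes. Its mean share was 0.741 ± 1.28% (SD, n = 3) in the later and 30.8 ± 10.6% (SD, n = 5) in the earlier window, without overlap (edgeR adjusted p = 0.013). The other peak, at location 237, held 99.3 ± 1.28% in the later and 65.8 ± 10.8% in the earlier window. The gene had 14, 5 and 45 reads in these later embryos. CJA00408, the third gene, has 3 peaks and was named after its values were seen. Its peak at location 669 held 1.70 ± 1.47% (SD, n = 3) at 140 to 180 minutes and 19.2 ± 3.34% (SD, n = 5) at 60 to 100 minutes (edgeR adjusted p = 0.013).

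**Figure D5:**
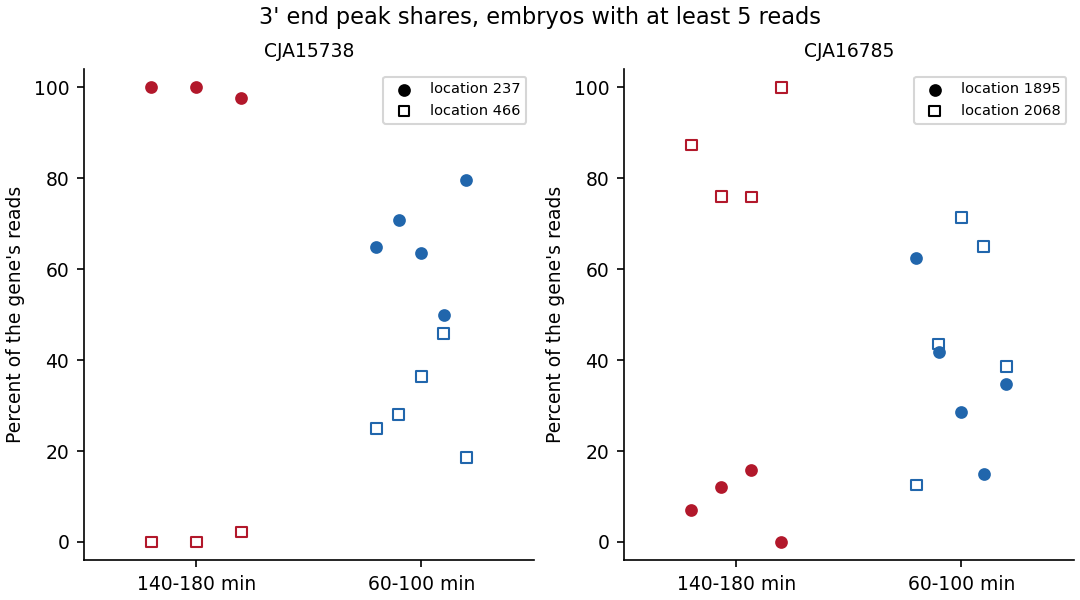
Percent of a gene's reads in each of 2 peaks, for CJA15738 and CJA16785, leaving out embryos that had under 5 of them, with 140 to 180 minutes on the left in red and 60 to 100 minutes on the right in blue. The peak at location 466 lies at 0 to 2.22% in the later embryos, and the peak at location 2068 at 75.9% or more.

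The variety of transcripts per embryo did not differ detectably between the windows. Thinned to 1719 reads, embryos held 838, 840, 831, 839 and 884 genes at 140 to 180 minutes and 842, 879, 905, 829 and 876 genes at 60 to 100 minutes. The ranges overlapped, and the means were 846 ± 21.4 in the later and 866 ± 30.5 in the earlier window (SD, n = 5 each; exact two-sided permutation p = 0.34, adjusted over 2 measures 0.34). Without the embryos at 160 and 180 minutes, and at the depth of the shallowest of the rest, the difference turned from -19.9 to 25.6 genes (exact permutation p = 0.625). The 10 most abundant genes held 9.82, 10.3, 16.8, 9.99 and 11% of reads at 140 to 180 minutes, against 8.29, 9.09, 8.87, 10.5 and 7.87% at 60 to 100 minutes. The later mean was higher, 11.6 ± 2.96% against 8.94 ± 1.02% (SD, n = 5 each), with an exact two-sided permutation p of 0.032 and an adjusted p of 0.063, where the smallest p the design allows is 0.0079. The difference was 2.64 percentage points, 1.33 without the 160-minute embryo, and 1.09 without those at 160 and 180 minutes (exact permutation p = 0.14, adjusted 0.29). The spread between embryos of a window, as edgeR's biological coefficient of variation, was 0.438 at 140 to 180 minutes, 0.427 there without the embryos at 160 and 180 minutes, and 0.471 at 60 to 100 minutes.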

How the data were processed

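The deposited table gives, per the file headers, read counts of 46 single embryos for each gene and for each 3′ end peak within it, and a deposited sheet pairs each column with its age, barcode (a code of its own, not a measurement) and library. CASAVA 1.8, Bowtie2 2.1.0 and HTSeq 0.5.4p3 are named in the submitters' processing notes. Their roles, the genome build, the annotation and the peak caller were not stated in the material available here. The table keeps genes with at least 103 reads and peaks with at least 98, so its totals are not full sequencing depth.

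Counts as deposited were tested with edgeR 4.0.16 (quasi-likelihood F test, filterByExpr, TMM, two-sided) in R 4.3.3, with p-values adjusted by Benjamini-Hochberg over all tested genes at 0.05. The 813 tested genes held 74.8% of the listed reads of the 10 embryos. limma 3.58.1 (prior count of 2) and DESeq2 1.42.0 were alternatives. Approximate intervals of steady genes combine edgeR's fold change with limma's standard error. Peak usage was tested with diffSpliceDGE over peaks with at least 10% of a gene's reads, in genes with at least 5 reads in at least 3 embryos of each window. Scripts were checked on simulated data.

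Named genes are the 2 largest rises and falls among called genes with a mean of at least 20 CPM and no overlap of windows, the largest slope each way without the overlap rule, the called 2-peak genes with the largest change of peak share, and the most abundant genes that were steady (log2 change within 0.25, interval within 1). The embryos, lists and rules were chosen with earlier results of these data known. The identifiers are paired with no names in the files, so the gene lists set out for this work matched no gene and none was tested. No sequence was used.

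Barcodes ran from 16 down to 12 over 140 to 180 minutes and from 9 up to 13 over 60 to 100 minutes, and the libraries carried the sequencing indices 16 and 15, so barcode order follows age within a window.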

Additional observations from a re-analysis of the deposited data

Results flagged for a closer look

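In 22 sets of 5 embryos, 6 held an embryo farther from the rest than Dixon's 95% limit, where chance gives about 1 in 20 for a set of continuous values that was not chosen by them. That rate does not apply to the 4 genes below: 3 were at 0 in all but 1 embryo, where any read passes the limit, and CJA42494 and CJA02877 were named for their slopes. CJA33872 stood at 47.5 CPM in the 140-minute embryo and at 0 in the other 4 of its window. CJA17400 stood at 9.73 CPM, 1 read, at 170 minutes and at 0 in the other 4. CJA02877 stood at 582 CPM at 140 minutes, and the next value was 9.73 CPM at 170 minutes. CJA42494 stood at 154 CPM at 100 minutes and at 0 in the 4 younger embryos of its window. The 180-minute embryo held 884 genes at equal depth, against 831 to 840 in the other 4 of its window. The 160-minute embryo had 16.8% of its reads in its 10 most abundant genes, against 9.82 to 11% in the other 4. The embryos at 160 and 180 minutes are the shallowest of the 10, and the part of depth in these 2 values was not tested.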

How the results depend on the processing

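The 176 genes that differed between 140 to 180 and 60 to 100 minutes became 108 with limma, 852 without the low-count filter, 753 in a fit of all 46 embryos, 3 of 9 tested after thinning to the shallowest embryo, and 406 without the embryos at 160 and 180 minutes, an alternative chosen after seeing the data. DESeq2 gave 209 (47 higher, 162 lower), library size alone 168 (67 and 101), the 4 embryos with barcodes present in both windows 126 (61 and 65), and leaving out 1 embryo 142 to 220. The fit of 4 embryos, which include the shallow 180-minute one, tested 1583 genes and called 34 of the 176 again in the same direction. The 1 slope at 140 to 180 minutes became 0 with limma, 0 to 1 with 1 embryo left out and 0 with both shallow embryos left out. The 4 slopes at 60 to 100 minutes became 0 with limma, 20 without the filter, 0 to 8 with 1 left out and 10 with both shallow embryos left out. The 0 slope differences became 3 with singleton pairing in TMM and 0 to 3 with 1 left out. The 928 genes of 190 to 230 over 10 to 50 minutes became 1972 without the filter and 872 to 1165 with 1 embryo left out, and library size alone gave 388 higher and 559 lower, against 518 and 410 with TMM. The 3 genes with changed peak usage became 0 by logistic regression, 1 at a peak share of at least 20%, and 0 to 5 with 1 left out. The difference in genes at equal depth turned from -19.9 to 25.6 without the embryos at 160 and 180 minutes (exact permutation p = 0.625), and ran from -29.4 to -10.3 with 1 left out. The difference in the share of the 10 most abundant genes ran from 1.33 to 3.08 with 1 left out, with an adjusted exact permutation p of 0.048 without the 90-minute embryo (3.04), and was 1.09 (adjusted 0.29) without both shallow embryos. The causes were not tested. CJA12144 (4.40 to 6.53), CJA13535 (3.77 to 4.91), CJA33872 (-7.46 to -6.05) and CJA17400 (-7.42 to -4.72) kept their direction and their call in every alternative that could test them, on the log2 scale. The ranges leave out fits without reads in a window, 2 for CJA33872 and 1 for CJA17400, whose fold is no bound. No paired analysis was possible because the embryos of the windows share no animal and the libraries share no replicate number that marks a pair. With 1719 to 257770 reads per embryo, genes with few reads in the shallow embryos limit the precision.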
